A study of Rattus norvegicus with 18 samples.

Results

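The transcription factors Tbr1, Neurod1, Neurod2, Neurod6, Bcl11b, Emx1, Emx2 and Mef2c, which are used to mark excitatory neurons of the cerebral cortex and their precursors, were followed in cultured rat neurons. Of the 8 listed genes, 3 (Neurod1, Neurod2 and Bcl11b) were found by their symbol on the array. A further 4 (Neurod6, Emx1, Emx2 and Mef2c) carried placeholder symbols and were found by their gene identifier through RefSeq. These 7 genes had 1 probe each, and all 7 probes were among the 11079 of 22523 probes kept for testing. No probe was matched to Tbr1, which was not analysed here.

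Primary cortical neurons from embryonic rats were exposed to lentivirus for 6 hours on day 1 in culture. The lentivirus carried either an shRNA against Chd5, which encodes a chromatin remodelling enzyme, or a scrambled control shRNA. RNA was harvested on days 5, 9 and 12 with 3 replicates per lentivirus and day (lettered a to c), which gave 18 Illumina RatRef-12 arrays in 6 groups of 3. The labels do not say whether replicates were separate cultures, so p-values measure the spread between these samples, which may be technical. The 1 CHD5 shRNA was compared with 1 control shRNA, and no probe was annotated to Chd5, so its depletion could not be read from the arrays.

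Factors of the NeuroD group (Neurod1, Neurod2, Neurod6) are basic helix-loop-helix activators that pair with E proteins, bind the E-box and drive the differentiation of excitatory neurons after they leave the cell cycle. Emx1 and Emx2 are homeodomain factors of the dorsal telencephalon, and Emx2 is known from cortical progenitors, where it takes part in area patterning. Bcl11b, also called Ctip2, is a zinc finger factor of deep-layer neurons that project below the cortex. Mef2c is a MADS-box factor of postmitotic neurons that takes part in the control of synapse number.

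Each value is the mean signal of a probe's beads, which was taken to log2, converted to a Z-score within its array and brought back to a log2 scale with the SD and mean averaged over arrays. This quantity is called the scaled log2 signal, and a difference in it is a log2 difference. A gene was called changed where the Benjamini-Hochberg adjusted p of limma, over all 11079 probes of a comparison, was under 0.05. Levels of different probes cannot be compared with each other. A probe was detected on an array where its detection p-value was at most 0.02. On 17 arrays the mean signal lay between 400.2 and 789, with 8360 to 9931 probes detected. One array, replicate b of the day 9 control, stood apart and is called the dim array, with a mean signal of 135, 7047 detected probes and a highest correlation with another array of 0.955, so results that rest on it are also given without it. With 3 arrays against 3, an exact two-sided permutation test cannot go below 0.1. In RNA from whole cultures, fewer cells of a type and less RNA per cell cannot be told apart. Of the markers of excitatory neurons, Slc17a6 (a vesicular glutamate transporter) was detected on 18 arrays, Camk2a on 13 and Slc17a7 on 4, and the neuronal genes Tubb3 and Map2 were detected on 18.

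The probes are shown because 4 of the genes rest on a probe filed under another symbol. Each probe has 50 bases, of which the first 30 are given, 5′ to 3′.
Neurod1: cgaatccactgtgcttacagtgactgtcct
Neurod2: caggccagaggcagttggtaaggggctgct
Neurod6: ggcgtcgaagagtatgttgcggagtaaaga
Bcl11b: cagaaatgccacaatggctgggtgtatgtt
Emx1: cacagggcttggagcctggggccatcaccg
Emx2: cgtggccaaggacatgggagttttcaagca
Mef2c: ttgctacatgtttctcactgtaaaaggctg
No 2 of these probes shared a run longer than 9 bases, and the longest run that any of them shared with another probe of the array was 12 to 15 bases. The coordinates below are as deposited, and their genome build is not given in the sources used here. The Neurod1 probe lies on chromosome 3 from 62225212 to 62225261, the Neurod2 probe on chromosome 10 from 87098118 to 87098167, the Neurod6 probe on chromosome 4 from 84476506 to 84476555 and the Bcl11b probe on chromosome 6 from 124394452 to 124394501, all on the minus strand. The Emx1 probe lies on chromosome 4 from 106724529 to 106724578, the Emx2 probe on chromosome 1 from 266011047 to 266011096 and the Mef2c probe on chromosome 2 from 10447347 to 10447396, all on the plus strand. The exon or untranslated region under each probe was not analysed here. The probes of 6 genes were detected on all 18 arrays, and that of Neurod2 on 17, the exception being the dim array.

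The first question was whether CHD5 depletion altered these factors. Emx2 was lower after CHD5 depletion at day 12, and it was the only one of the 7 genes called in a comparison of the lentiviruses. No member was called at day 5 or day 9. Among all probes 0.171% were called at day 5, 5.89% at day 9 and 5.47% at day 12 (3.24% called lower), so 1 of 7 genes at day 12 describes Emx2 and not the group. The median difference of the 7 genes was -0.01 at day 5, 0.19 at day 9 and 0.04 at day 12, beside medians over all probes of 0.01, -0.02 and 0.01. The median of the 7 genes at day 9 was 0.08 without the dim array.

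The day 12 control arrays gave Emx2 scaled log2 signals of 9.51, 9.30 and 9.29, and the CHD5 shRNA arrays gave 8.62, 8.57 and 8.78. The groups did not overlap, which was also true of 38.2% of all probes at that day. The raw signals were 803, 633 and 717 on the control arrays and 434, 379 and 431 on the CHD5 shRNA arrays. The difference was -0.71 ± 0.18 (SE, n = 3 and 3, limma adjusted p = 0.0246), which is 1.64-fold lower, with an exact permutation p of 0.1. Among all probes, 98.8% had a smaller absolute difference at day 12. The call was lost when any 1 of the 6 day 12 arrays was left out, at differences of -0.78 to -0.64, although each arm of 2 still gave a lower value after CHD5 depletion. Without the dim array, whose spread enters the shared error, the difference was -0.73 with an adjusted p of 0.000356.

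At day 9 the scaled log2 signals of Emx2 were 9.41, 8.55 and 9.28 on the control arrays and 8.60, 8.62 and 8.32 on the CHD5 shRNA arrays. Control replicate b, the array that stands apart, lay among the CHD5 shRNA arrays, while the other 2 control arrays lay above all of them. With all arrays the difference was -0.56 ± 0.18 (SE, n = 3 and 3) and was not called, at a limma adjusted p of 0.0756. Without that array it was -0.84 and was called, at a limma adjusted p of 0.000524. Without replicate a of the day 9 control instead, the difference was -0.40 and was not called, and of the 18 fits that left out a single array only the one without the dim array called it. In the same setting 10.8% of all probes were called at day 9. At day 5 the control arrays gave 9.08, 8.78 and 8.61 and the CHD5 shRNA arrays 8.69, 8.76 and 8.40, so that the groups overlapped. The difference was -0.21 ± 0.18 (SE, n = 3 and 3, limma adjusted p = 0.999).

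**Figure D1:**
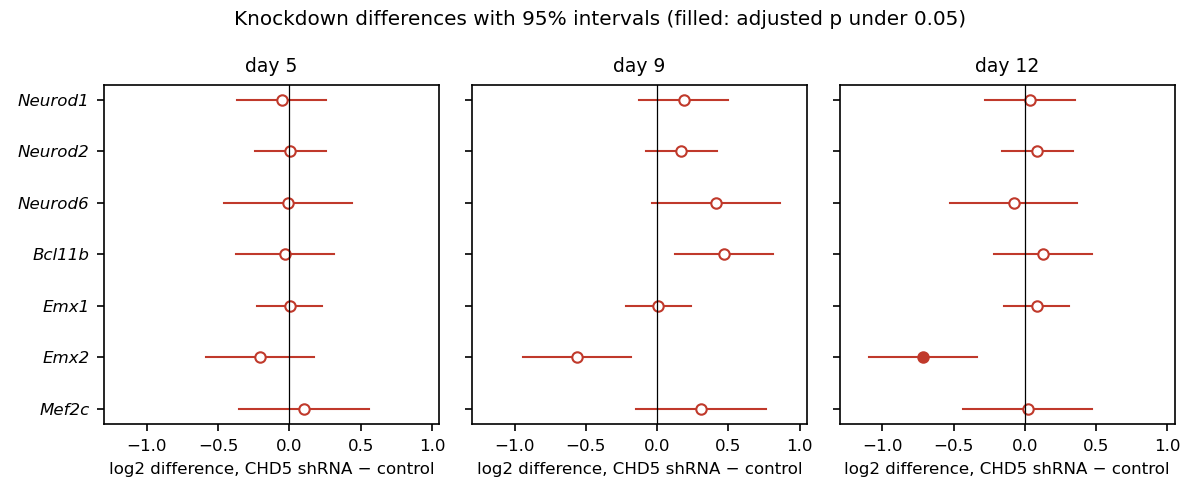
Difference in scaled log2 signal between CHD5 shRNA and control arrays (x axis, log2) for the 7 genes (y axis) at days 5, 9 and 12, with 95% intervals from limma and 3 arrays per group. Emx2 at day 12, at -0.71, is the filled point, which marks a limma adjusted p under 0.05, and no other point is filled.

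The change of the knockdown difference between days was tested directly. For Emx2 the difference at day 12 minus that at day 5 was -0.51 ± 0.26 (SE, limma adjusted p = 0.792), with a 95% interval of -1.04 to 0.03. No member passed this test, nor did any pass for day 9 minus day 5 or day 12 minus day 9, also without the dim array. Over all probes 0.153% passed for day 12 minus day 5 and 0% for the other pairs of days, where 809 probes (day 9 minus day 5) and 262 probes (day 12 minus day 9) had an unadjusted p under 0.05. Without the dim array 2.41% passed for day 12 minus day 5, 0.634% for day 9 minus day 5 and 0.00918% for day 12 minus day 9. The larger Emx2 difference at day 12 was therefore not shown to differ from that at day 5.

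The other 6 genes gave differences between -0.08 and 0.13 at day 12 and between -0.06 and 0.10 at day 5. Their 95% intervals at day 12 lay within -0.53 and 0.47, so a change of the size seen for Emx2 lies outside them. This was also the case for each of these genes at day 5, where the intervals lay within -0.46 and 0.56. At day 9 Bcl11b had the largest difference of the 6, at 0.47 ± 0.16 (SE, n = 3 and 3, limma adjusted p = 0.101). Its CHD5 shRNA arrays, at 10.85, 10.92 and 10.98, lay above its control arrays, at 10.84, 9.89 and 10.61. The groups did not overlap, as for 20.6% of all probes, and without control replicate b the difference was 0.19 (limma adjusted p = 0.223). Neurod6 differed by 0.41 at day 9 with all arrays and by 0.03 without that array. Leaving out control replicate a instead gave 0.66 for Bcl11b (limma adjusted p = 0.0105) and 0.68 for Neurod6 (limma adjusted p = 0.0274), both then called.

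The second question was how the factors moved with time in culture. Neurod6, Neurod2 and Bcl11b fell in the control culture from day 5 to day 12, and Emx2 rose. In the CHD5 shRNA culture Neurod6 and Neurod2 fell, and Bcl11b and Emx2 were not called. Of all probes, 23.6% were called between these days in the control culture and 17% in the CHD5 shRNA culture, and of the 7 genes 4 and 2 were called. In the control culture 12.5% of all probes were called lower and 11.1% higher, and in the CHD5 shRNA culture 8.56% were called lower. The median difference of the 7 genes was -0.22 in the control culture and -0.13 in the CHD5 shRNA culture, beside -0.02 and -0.01 over all probes.

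**Figure D2:**
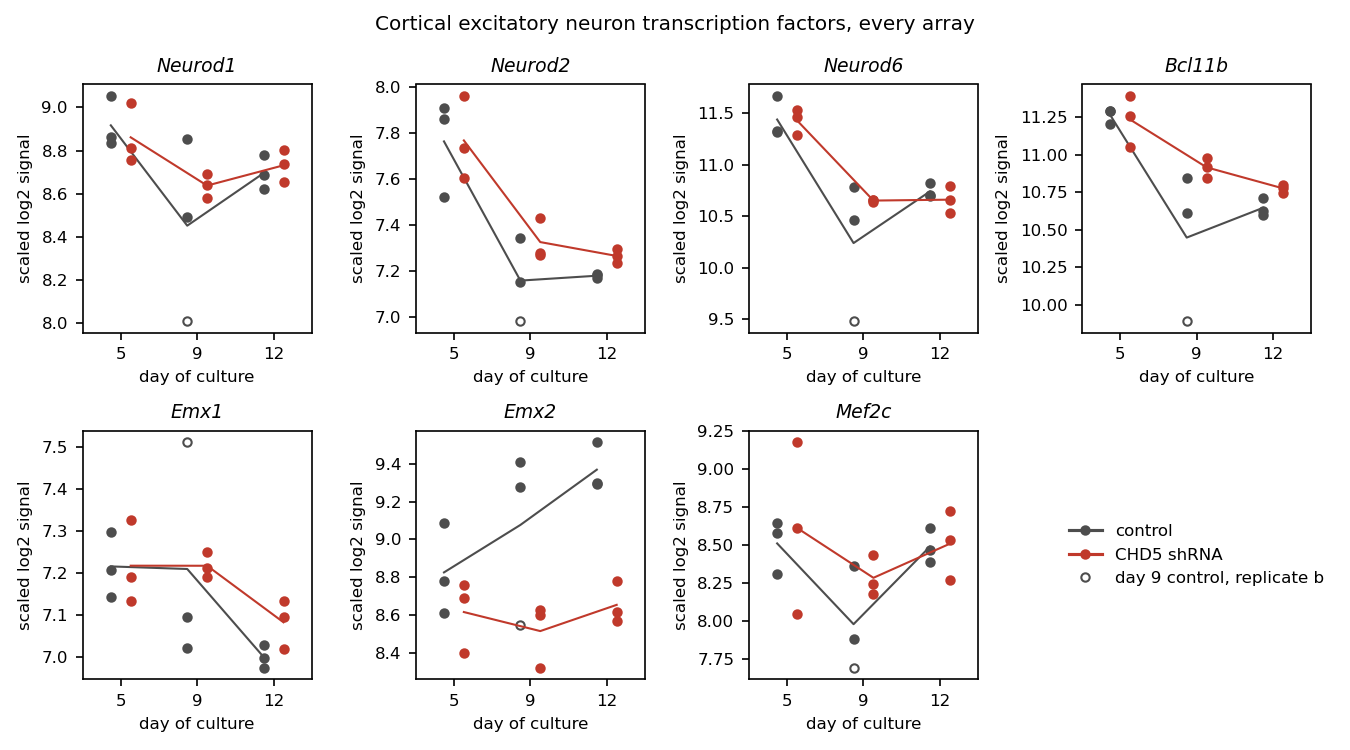
Scaled log2 signal (y axis, a separate range for each gene) of the 7 genes on every array by day of culture (x axis, days evenly spaced), with lines through the group means of 3 arrays. Neurod2, Neurod6 and Bcl11b lie lower at days 9 and 12 than at day 5 with either lentivirus, the Emx2 control arrays rise to 9.29 to 9.51 at day 12, and the open point is the dim array.

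Neurod6, also known as Math2 or NEX, had scaled log2 signals of 11.67, 11.32 and 11.33 on the day 5 control arrays. The day 9 control arrays gave 10.78, 9.48 and 10.46, and those of day 12 gave 10.69, 10.71 and 10.82. Every later control array lay below every day 5 control array, as it did after CHD5 depletion. From day 5 to day 9 the groups of 25.7% of all probes did not overlap in the control culture and 43.8% in the CHD5 shRNA culture, and from day 5 to day 12 these were 44.3% and 47.6%. With CHD5 shRNA the day 5 arrays gave 11.29, 11.46 and 11.53, those of day 9 gave 10.66, 10.66 and 10.64, and those of day 12 gave 10.53, 10.66 and 10.79. From day 5 to day 12 Neurod6 fell by 0.70 ± 0.21 in the control culture (SE, n = 3 and 3, limma adjusted p = 0.0228) and by 0.77 ± 0.21 in the CHD5 shRNA culture (limma adjusted p = 0.0173). At day 9 the difference from day 5 was -1.20 in the control culture (-0.84 without the dim array) and -0.78 in the CHD5 shRNA culture, all 3 called. The day 9 call of Neurod6 in the CHD5 shRNA culture was lost without day 5 replicate b or c or any of the 3 day 9 arrays (limma adjusted p of 0.0811 to 0.0976), and that of Neurod2, at -0.44, without day 5 replicate a or c or day 9 replicate a or b (limma adjusted p of 0.056 to 0.115). With median centring or no detection filter neither was called. With all arrays, no step from day 9 to day 12 was called for any of the 7 genes, beside 4.16% of all probes in the control culture and 1.37% in the CHD5 shRNA culture. Without replicate a of the day 9 control, Neurod6 (0.77, limma adjusted p = 0.0134), Neurod1 (0.44, limma adjusted p = 0.0257) and Mef2c (0.70, limma adjusted p = 0.0329) were called higher at day 12 than at day 9. The fall by day 12 missed the threshold in the control culture without day 5 replicate a or day 12 replicate a or b (adjusted p of 0.0657 to 0.0979). It missed it in the CHD5 shRNA culture without day 5 replicate b or c or day 12 replicate a or b (adjusted p of 0.0542 to 0.0696).

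Neurod2, a factor of differentiating and mature excitatory neurons, was the member whose fall from day 5 to day 12 was called whichever single array was left out, with either lentivirus. Its day 5 control arrays gave 7.91, 7.52 and 7.86, those of day 9 gave 7.34, 6.98 and 7.15, and those of day 12 gave 7.18, 7.18 and 7.17. After CHD5 depletion the day 5 arrays gave 7.96, 7.60 and 7.74, those of day 9 gave 7.27, 7.28 and 7.43, and those of day 12 gave 7.26, 7.29 and 7.23. With either lentivirus the day 5 arrays lay above all later ones, as with Neurod6. Neurod2 fell by 0.58 ± 0.12 in the control culture (SE, n = 3 and 3, limma adjusted p = 0.00126) and by 0.50 ± 0.12 in the CHD5 shRNA culture (limma adjusted p = 0.00609). The raw Neurod2 signals at day 12 were 147 to 168, and all 6 of these arrays detected the probe.

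Bcl11b gave 11.21, 11.29 and 11.30 on the day 5 control arrays, 10.84, 9.89 and 10.61 on those of day 9, and 10.71, 10.60 and 10.63 on those of day 12. It fell by 0.62 ± 0.16 by day 12 (SE, n = 3 and 3, limma adjusted p = 0.00974), without overlap, as for 44.3% of all probes, and this was called whichever single array was left out. In the CHD5 shRNA culture it gave 11.39, 11.26 and 11.06 at day 5 and 10.75, 10.80 and 10.78 at day 12. These groups did not overlap either, as for 47.6% of all probes, and the difference was -0.46 ± 0.16 (limma adjusted p = 0.0638). The same difference was called without the dim array, at -0.47 (limma adjusted p = 0.000434), and without replicate a of the day 9 control (limma adjusted p = 0.0206). Leaving out the dim array, 32.2% of all probes were called in this comparison. The Bcl11b change was not shown to differ between the lentiviruses, since the knockdown difference at day 12 minus that at day 5 was 0.16 ± 0.23 (SE, limma adjusted p = 0.999).

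Emx2 moved in the other direction in the control culture. From day 5 to day 12 it rose by 0.54 ± 0.18 (SE, n = 3 and 3, limma adjusted p = 0.0358), and all 3 day 12 control arrays lay above all 3 at day 5, while 44.3% of all probes had no overlap between these groups. In the CHD5 shRNA culture the difference was 0.04 ± 0.18 (limma adjusted p = 0.925), with a 95% interval of -0.34 to 0.42. This comparison and that of the lentiviruses at day 12 share the 3 day 12 control arrays, so they are not independent. The rise was not called without control replicate a, b or c of day 12 or replicate b or c of day 5 (limma adjusted p of 0.064 to 0.136), and it was 0.56 without the dim array (limma adjusted p = 0.00131).

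**Figure D3:**
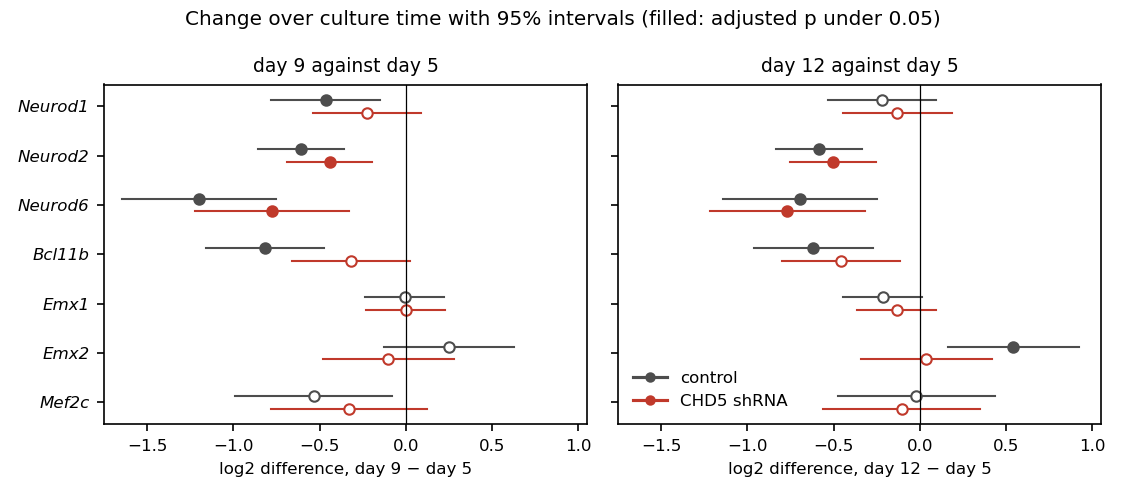
Difference in scaled log2 signal from day 5 (x axis, log2) at day 9 and at day 12 for the 7 genes (y axis) in the control and the CHD5 shRNA culture, with 95% intervals from limma and 3 arrays per group. Neurod2 and Neurod6 are filled (limma adjusted p under 0.05) on the left of 0 in both cultures at both days, although both lose the day 9 call in the CHD5 shRNA culture when single arrays are left out, and Emx2 is filled on the right in the control culture at day 12.

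Neurod1, the NeuroD factor that acts earliest of the group in newborn neurons, was called, with all arrays, only between days 5 and 9 in the control culture, at -0.47 ± 0.15 (SE, n = 3 and 3, limma adjusted p = 0.0336). Its scaled log2 signals there ran from 8.83 to 9.05 at day 5 and from 8.01 to 8.86 at day 9, and the groups overlapped. Without replicate b of day 9 the difference was -0.25 and was not called (limma adjusted p = 0.129), and it was also not called without any 1 of the day 5 control arrays (limma adjusted p of 0.0548 to 0.0917) or without replicate c of day 9 (limma adjusted p = 0.0527). By day 12 the differences from day 5 were -0.22 in the control culture and -0.13 in the CHD5 shRNA culture, neither called. The percentage of all probes called from day 5 to day 9 was 22% in the control culture and 9.33% in the CHD5 shRNA culture.

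Emx1, whose expression marks the excitatory lineage of the dorsal telencephalon, was dim on every array, with raw signals of 121 to 197 on the 17 arrays other than the one that stands apart. Its differences from day 5 to day 12 were -0.22 ± 0.11 in the control culture and -0.13 ± 0.11 in the CHD5 shRNA culture (SE, n = 3 and 3), neither called (limma adjusted p = 0.174 and 0.463). The groups did not overlap in either culture, as for 44.3% and 47.6% of all probes. Without the dim array the difference in the control culture was -0.22 and was called (limma adjusted p = 0.0266), beside 39% of all probes called in that setting.

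Mef2c was not called in any of these comparisons with all arrays. Its difference from day 5 to day 9 in the control culture was -0.53 (limma adjusted p = 0.0832), and it was called without day 9 control replicate a (-0.72, limma adjusted p = 0.0137), and at -0.53 without CHD5 shRNA replicate a or b of day 5. Its arrays spread most at day 5 in the CHD5 shRNA culture, where the scaled log2 signals were 8.05, 9.18 and 8.61. From day 5 to day 12 it differed by -0.02 ± 0.22 in the control culture and by -0.10 ± 0.22 in the CHD5 shRNA culture (SE, n = 3 and 3, limma adjusted p = 0.962 and 0.808). It was lowest at day 9, with means of 7.98 ± 0.35 in the control culture and 8.28 ± 0.13 in the CHD5 shRNA culture (SD, n = 3), against 8.51 ± 0.18 and 8.61 ± 0.57 at day 5. A second probe, filed as LOC499495 and described in the file as similar to myocyte enhancer factor 2C, was not counted as a member. It gave means of 10.38, 9.86 and 10.60 at days 5, 9 and 12 in the control culture and 10.43, 10.30 and 10.61 in the CHD5 shRNA culture, also lowest at day 9, and was not called in any comparison.

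Relatives and partners of the members were partly measured. The single probes of Neurod4, Tbx21, Bcl11a and Mef2d were detected on 0 arrays, that of Mef2b on 2, and no probe was matched to Eomes or Mef2a. Probes matched to the E proteins Tcf12, Tcf3 and Tcf4, with which NeuroD factors pair, were detected on all 18 arrays. Tcf3 had 2 kept probes, and the one with the higher mean signal, filed as Tcf3_predicted, is given here. Whether that probe measures the E protein was not checked. In the control culture Tcf12 rose by 0.52 ± 0.15 (SE, limma adjusted p = 0.0165) and Tcf3 by 0.59 ± 0.20 (limma adjusted p = 0.0427) from day 5 to day 12. Tcf4 differed by -0.35 ± 0.15 and was not called (limma adjusted p = 0.104). In the CHD5 shRNA culture none of the 3 was called, with differences of 0.41 for Tcf12, 0.25 for Tcf3 and -0.37 for Tcf4. At day 12 all 3 had lower means after CHD5 depletion, at -0.36, -0.68 and -0.31 for Tcf12, Tcf3 and Tcf4, and none was called (smallest limma adjusted p 0.0621, for Tcf3).

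The start regions of the NeuroD genes are shown because NeuroD factors bind the E-box. These are the 250 bases before the gene start in RefSeq (build GRCr8), 5′ to 3′ on the strand of the gene, with each E-box (CANNTG, which reads the same class on both strands) in capitals. The Neurod1 region is chr3:84770455-84770704, that of Neurod2 chr10:83824278-83824527 and that of Neurod6 chr4:86180156-86180405, all on the minus strand.
Neurod1: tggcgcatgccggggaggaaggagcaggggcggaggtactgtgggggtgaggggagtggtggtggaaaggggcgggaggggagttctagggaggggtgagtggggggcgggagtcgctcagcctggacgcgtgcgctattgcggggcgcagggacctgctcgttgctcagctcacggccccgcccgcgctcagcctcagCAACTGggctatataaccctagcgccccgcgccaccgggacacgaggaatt
Neurod2: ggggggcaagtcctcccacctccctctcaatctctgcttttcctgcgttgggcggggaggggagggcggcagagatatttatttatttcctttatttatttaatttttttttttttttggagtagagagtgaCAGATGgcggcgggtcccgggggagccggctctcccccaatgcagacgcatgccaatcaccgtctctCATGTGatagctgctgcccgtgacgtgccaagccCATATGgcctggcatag
Neurod6: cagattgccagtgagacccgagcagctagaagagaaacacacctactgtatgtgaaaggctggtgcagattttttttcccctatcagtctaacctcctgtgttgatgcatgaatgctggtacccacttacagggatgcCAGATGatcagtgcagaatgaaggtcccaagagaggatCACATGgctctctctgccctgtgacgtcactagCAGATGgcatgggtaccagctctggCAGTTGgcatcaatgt
Neurod1 held 1 E-box, Neurod2 3 and Neurod6 4. Of 33469 start regions of the same length, 65.5% held at least 1, 11.5% at least 3 and 3.20% at least 4. Tbr1 held 1 and Emx1 held 2, as at least 2 were held by 30.8% of all. A match describes letters and not binding, and Bcl11b, Emx2 and Mef2c were not looked up here. Whether the number of E-boxes goes with the change over culture time was not tested.

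Of the other factors of the cortical lineage, 10 fell and 2 rose in the control culture. The 2 that rose were Tcf12 and Tcf3, given above, and whether the Tcf3 probe measures the E protein was not checked. Of 35 listed, 32 were on the array and 24 were kept. From day 5 to day 12 in the control culture 12 of these 24 did not pass, and the median difference was -0.40. Over the same days 12.5% of all probes were called lower and 11.1% higher. In the CHD5 shRNA culture 7 fell, none rose and 17 did not pass, with a median of -0.28, while 8.56% of all probes were called lower. Among the largest falls were those of Nr4a2 (-1.72 in the control and -1.61 in the CHD5 shRNA culture), Sox11 (a factor of immature neurons, -1.57 and -1.31) and Fezf2 (which acts upstream of Bcl11b in deep-layer neurons, -1.57 and -1.14), each called in both cultures with a limma adjusted p of 4.5e-05 at most. Sox4, a relative of Sox11, fell by 1.41 in the control culture (limma adjusted p = 3.6e-07), and Pou3f2 fell by 0.81 in the CHD5 shRNA culture (limma adjusted p = 0.00695). Without the dim array, 15 fell and 3 rose in the control culture, and 9 fell and 1 rose in the CHD5 shRNA culture, while 39% and 32.2% of all probes were called. Of the same 24 factors, none was called between the lentiviruses at day 5 or day 12, and at day 9 Pou3f3 was higher after CHD5 depletion (0.34, limma adjusted p = 0.0477). The shares of all probes called were 0.171% at day 5, 5.89% at day 9 and 5.47% at day 12. Without the dim array 2 of the 24 were lower and 1 higher at day 9, and 4 were lower and none higher at day 12. In that setting 10.8% and 13.3% of all probes were called in either direction. Of 10891 probes, 726 were lower and 446 higher at day 9, and 770 were lower and 681 higher at day 12.

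**Figure D4:**
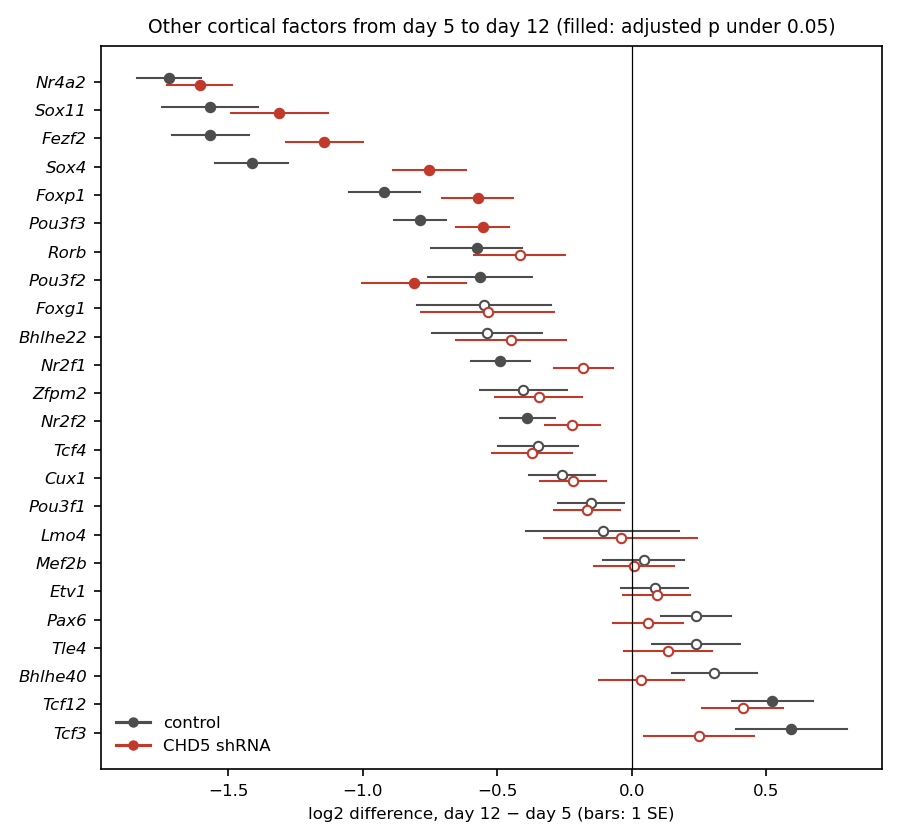
Difference in scaled log2 signal from day 5 to day 12 (x axis, log2, bars of 1 SE, 3 arrays per group) for the 24 other cortical factors kept (y axis) in the control and the CHD5 shRNA culture. Filled points passed a limma adjusted p under 0.05, and the points of Nr4a2, Sox11 and Fezf2 lie between -1.72 and -1.14.

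Genes that excitatory neurons use in transmission were called in both directions in the control culture. Of 17 kept, 5 rose and 2 fell in the control culture from day 5 to day 12, and 4 rose and none fell in the CHD5 shRNA culture, with medians of 0.04 and 0.12, beside 23.6% and 17% of all probes called. Without the dim array 5 rose and 4 fell in the control culture and 5 rose and 2 fell in the CHD5 shRNA culture, beside 39% and 32.2% of all probes. Baiap2 (a postsynaptic scaffold protein) rose by 0.86 in the control culture and by 0.62 in the CHD5 shRNA culture, and Slc17a6 fell by 0.68 in the control culture. Between the lentiviruses 3 of the 17 were higher after CHD5 depletion at day 9 and 1 at day 12, and none lower. Among all probes 5.89% and 5.47% were called. Nrgn (neurogranin, a calmodulin-binding protein of excitatory neurons) was higher at day 9 (0.55, limma adjusted p = 0.0398) and at day 12 (0.98, limma adjusted p = 0.000765). Without the dim array 2 were higher and 1 lower at day 9, and 3 higher and 1 lower at day 12. In that setting 10.8% and 13.3% of all probes were called. Of 13 general neuronal genes kept, 2 rose and 2 fell in the control culture, and at days 9 and 12 the 1 gene called between the lentiviruses was Tubb3, higher after CHD5 depletion by 0.55 and 0.53.

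Emx2 moved in the direction of the astrocyte markers between the lentiviruses at day 12 and with time in the control culture. In the CHD5 shRNA culture 10 of 11 astrocyte genes rose from day 5 to day 12, beside 17% of all probes called. The Emx2 difference there was 0.04, with a 95% interval of -0.34 to 0.42, and was not called. Its change with time was not shown to differ between the cultures, since the knockdown difference at day 12 minus that at day 5 was -0.51 (limma adjusted p = 0.792). The summed scaled signal of 11 astrocyte genes ran from 8702 to 9227 on the day 5 control arrays, from 25924 to 31710 on the 2 day 9 control arrays other than the dim array (108304 there) and from 43076 to 45692 at day 12. On the CHD5 shRNA arrays it ran from 6858 to 7251, from 16556 to 20884 and from 24115 to 25838. It was thus lower on every CHD5 shRNA array than on any control array of the same day. Of the 11 genes, 7 were lower and none higher after CHD5 depletion at day 9, and likewise 7 and none at day 12. Among all probes 5.89% were called at day 9 and 5.47% at day 12, with 3.24% called lower at day 12. The largest falls at day 12 were those of S100b (-1.28), Aldoc (-1.25), Acsbg1 (-1.17) and Gja1 (-0.84). All 11 astrocyte genes were detected on every day 12 array. Of 15 interneuron genes 3 were lower and 1 higher at day 12, of 5 fibroblast genes 2 were lower and none higher, and of 2 endothelial and pericyte genes none was called. Of 9 oligodendrocyte lineage genes 2 were lower at day 12 and none higher. Of 9 progenitor and proliferation genes none was called at day 12. None of the 9 was called at day 5, and 1 was lower at day 9. Their differences lay below 0 for all 9 at day 5, for 7 at day 9 and for 7 at day 12. Microglial genes were at or near background, with 2 of 9 on the array kept and none detected on all 3 arrays of a group. Leaving out the dim array, 8 of the 11 astrocyte genes and 6 of the 15 interneuron genes (1 higher) were lower at day 12. So was 1 of the 9 progenitor and proliferation genes, beside 770 of 10891 probes lower (13.3% called in either direction). In that setting 4 of these 9 genes were lower at day 5 and 2 at day 9, none higher. Of all probes 1.49% and 10.8% were called there. The part of glial cells in the Emx2 result was not tested.

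**Figure D5:**
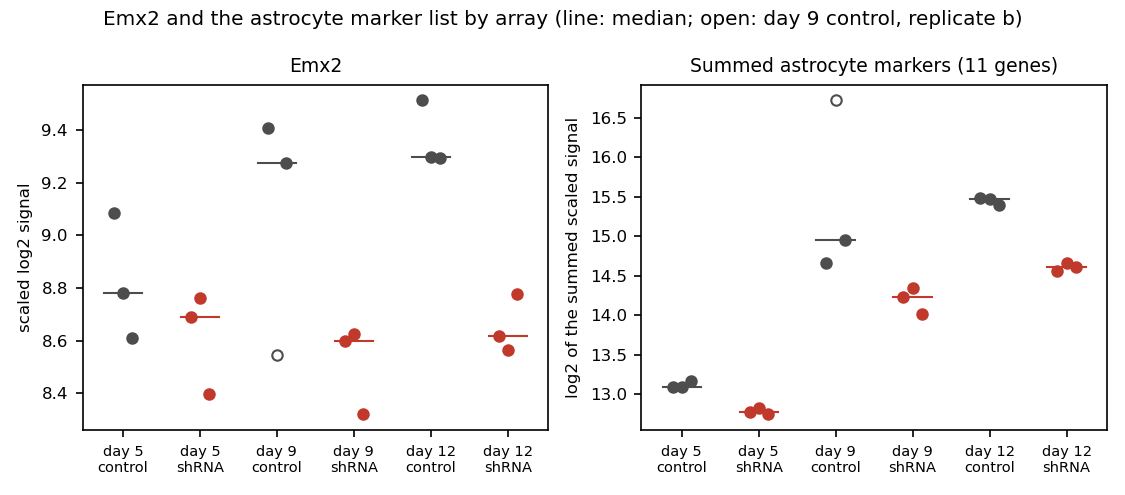
Left, scaled log2 signal of Emx2 by array in the 6 groups of 3 (x axis). Right, log2 of the summed scaled signal of 11 astrocyte genes on the same arrays; lines are medians, the open point is the dim array, and in both panels all 3 day 12 control arrays lie above the 3 CHD5 shRNA arrays.

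The genes whose pattern over the 18 arrays was most like each member were found among 6437 probes detected on every array, by Pearson's r of the scaled log2 signal. The arrays share 6 group means and 1 array that stands apart, so the values are descriptions. Nearest to Neurod6 were Akirin2 (r = 0.97), Rpl5 and Rbmxl1 (both 0.96), and nearest to Bcl11b were Capn7 (0.97), Smsl1 and Erich1 (both 0.96). Nearest to Neurod2 were Morc2 (0.96), Ppm1g and Gdpd5 (both 0.95), and nearest to Neurod1 were RGD1564247 (0.95), Yy1 and Zc3h14 (both 0.94). Nearest to Emx2 were 2 probes of Fundc1 (0.95 and 0.94) and Plat (0.93), and nearest to Mef2c were Srr (0.94), Ube2j1 and Tnks2 (both 0.90). Over the 18 arrays Emx1 had the weakest likeness, with Nars1, Dynlrb1 and RGD1562760 at 0.87, and this ranking did not hold without the array that stands apart. Without the array that stands apart the nearest genes were Satb1 and Crem for Bcl11b (0.96 and 0.97), Akirin2 again for Neurod6 (0.95), Lmnb2 for Neurod2 (0.95), Yy1 for Neurod1 (0.91), Efr3a for Emx2 (0.95), Elp5 for Emx1 (0.94) and Srr again for Mef2c (0.92).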

How the data were processed

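RNA of 18 samples was hybridised to Illumina RatRef-12 arrays, and groups and replicate letters were taken from the sample titles. The deposited signal intensity is the mean over a probe's beads, extracted by the authors with GenomeStudio 1.1.1 (submitters' processing notes), and the file headers state neither normalization nor subtraction of background. The deposited detection p-value sets a probe against negative control beads. Of 22523 probes, 11079 were kept, each detected at 0.02 or below by 1 array or more. Their log2 signals were Z-transformed per array, after the study's methods, and multiplied by the mean SD. limma 3.58.1 in R 4.3.3 was fitted to the 6 groups together in place of the study's Z-ratio, since it gives an error per difference, with Benjamini-Hochberg adjustment and a limit of 0.05. The procedure was tested on simulated data. The members, lists and tests were chosen with earlier results of these data known. One factor of the cortical list is not reported here. Listed genes were matched by symbol or, through RefSeq, by gene identifier. All members are named, and from each other list at most the 4 largest called changes per comparison, among genes that all 3 arrays of the higher group detected, as well as relatives and partners of members. The main fit did not pair arrays by replicate letter, and fits with the letter as a block were run as alternatives. Every same-letter correlation of deviations was over 0.1 for the lentiviruses at day 5 (0.17 to 0.38). This also held for days 9 and 12 of the control culture (0.14 to 0.26), and for no other comparison. Replicate a was measured a second time on 6 arrays, used only as an alternative. The other alternatives were other normalizations, detection filters, array weights, replicate blocks, only the groups compared, and arrays left out. The number of arrays limits the precision.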

Additional observations from a re-analysis of the deposited data

How the results depend on the processing

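In all, 34 alternative settings were tried. Of 2751 values of single genes under them, 2636 kept their direction and side of the threshold, 82 lost and 33 gained a call, and none that was called in either fit changed sign, while 132 uncalled values did. At day 9, where none of the 7 genes was called between the lentiviruses, 1 (Emx2) was called with array weights (adjusted p = 0.0114), detection on all arrays of a group (0.0345), neqc (0.00241) and quantile normalization (0.000792), and leaving arrays out gave 0 to 2. At day 12, where Emx2 was called, 0 were called with median centring (-0.75, adjusted p = 0.137), no detection filter (-0.71, 0.143) and the second measurement of replicate a (-0.61, 0.0667), and leaving arrays out gave 0 to 1. From day 5 to day 12 in the control culture, where 4 were called, median centring left 1 (Neurod2), and leaving arrays out gave 0 (without all c arrays) to 5 (without the dim array). In the CHD5 shRNA culture, where 2 were called, median centring left 1 and no detection filter left 0, and leaving arrays out gave 0 to 3. At day 5, and for the change of the knockdown difference from day 5 to day 12, 0 were called under every setting run. Fitting only the groups compared left none of the 4 control culture calls from day 5 to day 9. The Neurod1 call of that comparison was also lost with array weights (adjusted p = 0.0753), neqc (0.0668), quantile normalization (0.0526), median centring (0.0664) and no detection filter (0.078). The cause of these changes was not tested. With the replicate letter as a block no call of a member changed, and the Emx2 difference at day 12 had an adjusted p of 0.0188 with a block over all days and 0.0286 within the day. The other probe of a gene could not be tried, since each gene had 1, and the array weights did not reach their convergence tolerance.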
